A study of Mus musculus with 6 samples.

Results

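The apoptosome and the caspases it switches on were examined in 6 RNA sequencing libraries of BUMPT cells, through 8 genes: Apaf1, Casp9, Casp6, Cycs, Diablo, Htra2, Xiap and Birc2. They were found by matching the mouse transcript identifiers of the table to gene symbols, and are 8 of the 11236 genes with at least 1 matched transcript. A total of 16 transcripts belong to them. BUMPT is a conditionally immortalised line of mouse kidney proximal tubule cells. The label was NC for 3 libraries and tRF-Val for the other 3, the latter named for a fragment of a valine transfer RNA, tRF-Val-TAC-004. All 6 share the line and the cell type, and no genotype, dose or time separates them in the labels. NC is not spelled out, and whether the fragment was added or blocked, and by which method, is not said, so both groups keep their labels here. The stated purpose was to look for a target of the fragment within apoptosis, and the title of the series names Apaf1. Separate cultures are not mentioned for the libraries. The p-values therefore set the difference between the groups against the variation among libraries within them, and that variation may be technical.

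In the intrinsic pathway of apoptosis, cytochrome c leaves the mitochondrial intermembrane space and binds Apaf1 in the cytosol. Apaf1 then assembles into a wheel, the apoptosome, on which caspase-9 is recruited and activated, and caspase-9 in turn cleaves the executioner caspases. Inhibitor of apoptosis proteins hold some of these caspases in check. Diablo (also called Smac) and Htra2, released from mitochondria together with cytochrome c, bind the inhibitors and relieve that block. Loss of tubule cells by this route is a known part of ischaemic kidney injury.

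The measure is an abundance per transcript, scaled by the authors to the library and added over the transcripts of a gene. The tools named for it report abundance per base of transcript, so levels of different genes are set side by side here as levels per length, although the unit itself is not stated. A fold change here is the mean log2(value + 1) of tRF-Val less that of NC, so a positive value is higher in tRF-Val and changes of low genes are understated. A gene was tested when its mean over the 6 libraries was at least 1, which 10405 genes met. Of the 8 genes, 7 were tested and Htra2, with a mean of 0.922, was not. The number of reads is unknown, since the values are not counts. The summed values over mouse rows lay between 387611 and 444539 per library. NC 3 stood apart from the other libraries, with 17.5% of its values in mitochondrially encoded transcripts against 3.16% to 6.58% elsewhere, and results that change without it are given both ways. Of 13 tubular epithelial markers 9 were listed, with summed levels of 488 to 746 in NC and 856 to 952 in tRF-Val, led by the keratins Krt8 and Krt18. Lrp2, Cubn, Slc34a1 and Ggt1, which define the mature proximal tubule, had no row in the table as analysed here. Of the markers of other cells, 4 of 8 for leukocytes, 1 of 5 for endothelium, 2 of 6 for fibroblasts and 1 of 3 for synovium were listed. The leukocyte sum was 8.29 to 23.5 in NC and 34.1 to 40.9 in tRF-Val, most of it Cd14 in each library, while Ptprc, the defining leukocyte marker, had no row. The endothelial sum, all of it Cdh5, was 6.25 to 8.03 in NC and 2.72 to 5.02 in tRF-Val, the fibroblast sum 0.850 to 1.26 and 1.01 to 1.76, and the synovial sum, all of it Has2, 6.05 to 8.48 and 3.70 to 5.88. Their part in the results was not tested.

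No gene of the 8 passed the threshold of an adjusted p under 0.05 (limma, Benjamini-Hochberg over all 10405 genes), where 0.259% of all genes did. Apaf1 and Diablo, 2 of the 7 tested, had an unadjusted p under 0.05, as did 27.8% of all genes tested. The values separated the groups in both directions. Apaf1 and Birc2 were lower in every tRF-Val library than in any NC library, a separation seen in 22.1% of all genes tested. Cycs and Diablo were higher in every tRF-Val library, which 20.3% of all genes tested were. In the remaining 4, Htra2 included, the groups overlapped. Each direction thus held 2 of the 7 tested genes, which is near the background and is not a result about this pathway. The median fold change of the 7 tested genes was -0.10, against 0.01 over all genes tested. In such bulk libraries, fewer cells that carry a transcript and less of it per cell cannot be told apart.

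**Figure D1:**
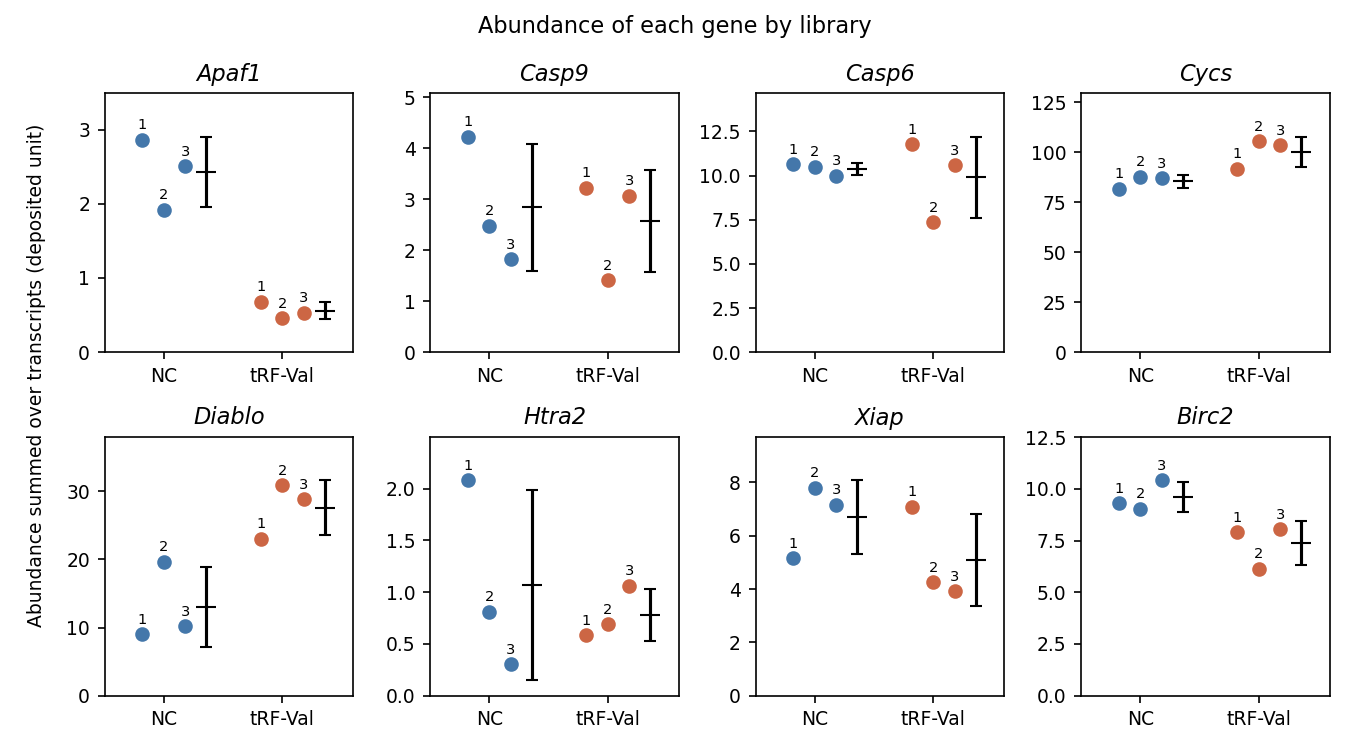
Abundance summed over the listed transcripts of each gene (deposited unit, y axis from 0) in the 3 NC and 3 tRF-Val libraries; points are libraries with their replicate number, and bars are mean ± SD (n = 3). Apaf1 in tRF-Val lies between 0.461 and 0.683, below all NC libraries, Diablo and Cycs lie above them, and Casp9, Casp6, Htra2 and Xiap overlap.

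Apaf1 (ENSMUSG00000019979) is encoded on the minus strand of chromosome 10, from 90989311 to 91082770 in GRCm38, the build of all coordinates given. Its value was 2.86, 1.92 and 2.51 in NC 1, 2 and 3, against 0.683, 0.461 and 0.532 in tRF-Val 1, 2 and 3. Each NC library was above each tRF-Val library, and the gap between the groups was wider than the range within either. The mean in tRF-Val was 0.230 times that in NC (0.558 ± 0.113 against 2.43 ± 0.475, SD, n = 3). The fold change was -1.13 with a 95% interval of -1.55 to -0.71, and the limma adjusted p of 0.0568 missed the threshold. Without NC 3 the fold change was -1.11 with an adjusted p of 0.0439, which passed, in a fit in which 602 of 10405 genes passed. Apaf1 was at a low level in both groups. No mouse row of the table has a larger group mean below 0.5. Both listed Apaf1 transcripts reach that floor through NC only, with means of 1.43 and 1.00 there against 0.154 and 0.405 in tRF-Val. Every fold change, interval and p given here for Apaf1 thus comes from rows present through the group where they are high, and is a description.

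Both listed Apaf1 transcripts, Apaf1-201 and Apaf1-202, encode the same protein from 3747 coding bases. They differ only outside the coding sequence. The first exon of Apaf1-201 starts 108 bases further upstream, its second exon is 43 bases longer ahead of the start codon, and its last exon ends 7 bases earlier. The first 90 coding bases, which encode the start of the caspase recruitment domain that holds caspase-9, are shown because both transcripts share them. The sum of the pair is thus the level of listed RNA for this protein. Of 8 annotated Apaf1 transcripts, 5 of them coding, only these 2 had a row, so RNA from the others is not counted. They lie at chr10:91079935-91080024 of GRCm38, minus strand, and the capitals mark the start codon.
Apaf1 coding start: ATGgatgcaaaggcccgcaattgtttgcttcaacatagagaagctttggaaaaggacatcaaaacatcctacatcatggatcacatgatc

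The 2 transcripts traded places between libraries of 1 group. The NC 1, 2 and 3 libraries held 1.21, 1.79 and 0.00134 of Apaf1-201, and tRF-Val 1, 2 and 3 held 0.683, 0 and 0.532. Of Apaf1-202, the NC libraries held 1.65, 0.132 and 2.51, and the tRF-Val libraries 0, 0.461 and 0. In NC 3 and in each tRF-Val library a single transcript thus held nearly all of the value, and in NC 2 Apaf1-201 held 93.1%. Only NC 1 was mixed, where Apaf1-201 held 42.2% and Apaf1-202 held 57.8%. A transcript listed at 0 can be a failed estimate. Neither transcript separated the groups on its own, and their sum did. Both had means under 1 over the 6 libraries and were not tested singly.

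The genes whose values followed Apaf1 most closely over the 6 libraries were Mctp2, a membrane protein with calcium-binding C2 domains, Gm6685, Apbb2, a partner of the amyloid precursor protein, Sorbs2, a cytoskeletal adaptor, and Ano1, a calcium-activated chloride channel. Their Pearson r with Apaf1 on the log2(value + 1) scale was 0.994 to 0.996, the highest of 10404 genes. Mctp2 was 2.38, 1.86 and 2.24 in NC 1, 2 and 3, against 0.716, 0.655 and 0.628 in tRF-Val 1, 2 and 3. Like Apaf1, it was lowest within NC in NC 2. The order is a description over 6 libraries that already fall into separated groups. Among the partners, Birc2 was nearest to Apaf1 with r of 0.850 at place 1405 and Diablo farthest with r of -0.942 at place 10244, while Casp9 had r of 0.265.

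Casp9, the initiator caspase that Apaf1 activates, lies on chromosome 4 at 141793612 to 141815976 on the plus strand and was listed with 1 transcript of 3897 bases. It was 4.23, 2.48 and 1.82 in NC 1, 2 and 3, against 3.22, 1.41 and 3.07 in tRF-Val 1, 2 and 3. The groups overlapped, and both NC and tRF-Val spread over more than the distance between their means of 2.84 ± 1.24 and 2.57 ± 1.00 (SD, n = 3). Its fold change of -0.10 had a 95% interval of -0.89 to 0.69 (limma adjusted p 0.847). So wide an interval does not show that Casp9 was alike in the groups.

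Set against this partner, Apaf1 was at 0.677, 0.775 and 1.37 times the level of Casp9 per length in NC 1, 2 and 3. In tRF-Val 1, 2 and 3 the ratio was 0.212, 0.326 and 0.173. With the transcripts summed, every tRF-Val library was below every NC library, and NC 3 was the single library with more Apaf1 than Casp9. On the log2 scale with 1 added to both values, the mean ratio was -0.13 ± 0.39 in NC and -1.15 ± 0.37 in tRF-Val (SD, n = 3), a difference of -1.03. With 0.1 added in place of 1 that difference was -1.79. When only the most abundant transcript of each gene was used, Apaf1-202 for Apaf1, the difference was -0.85 and the groups overlapped, with tRF-Val 2 at -0.72, above NC 1 at -0.98 and NC 2 at -1.62. The ratio joins genes of the set and is given without a test. It also rests on Apaf1 rows that are present through NC only, the group where they are high.

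**Figure D2:**
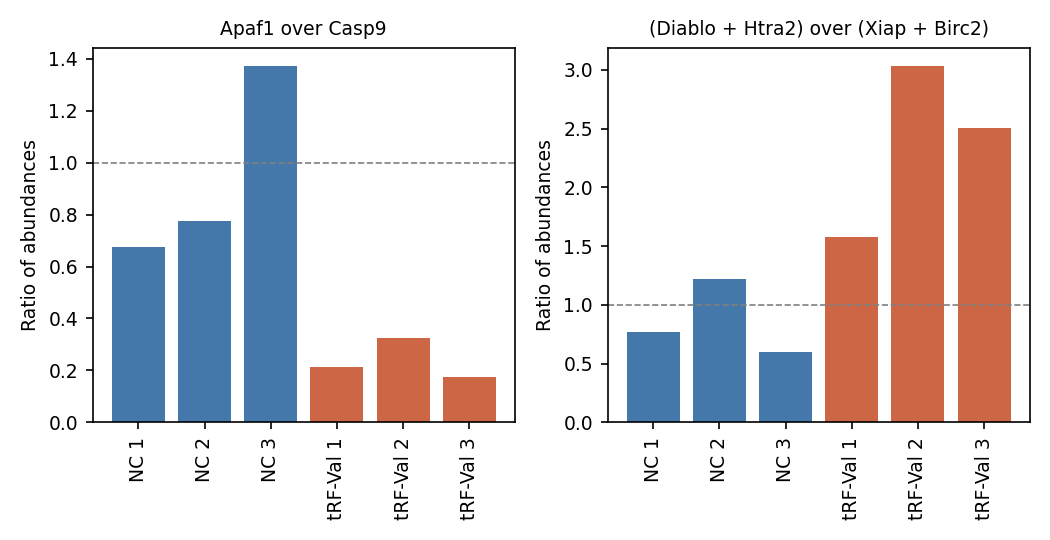
Ratio of abundances in each library (y axis from 0, dashed line at equal levels), for Apaf1 over Casp9 on the left and for Diablo plus Htra2 over Xiap plus Birc2 on the right; each bar is 1 library. The left ratio is 0.677 to 1.37 in NC and 0.173 to 0.326 in tRF-Val, and the right ratio is 0.596 to 1.22 in NC and 1.58 to 3.04 in tRF-Val.

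Cycs encodes somatic cytochrome c, the electron carrier whose release triggers the assembly of Apaf1. It lies on chromosome 6 at 50562563 to 50566538 on the minus strand and was listed with 1 transcript. Its value was 81.7, 87.7 and 87.2 in NC 1, 2 and 3, against 91.7, 106 and 104 in tRF-Val 1, 2 and 3. All tRF-Val libraries were above all NC libraries. The fold change was 0.23 with a 95% interval of -0.08 to 0.54 (limma adjusted p 0.286), and rescaling the libraries without their mitochondrially encoded transcripts turned it to -0.03. Per length the transcript was far more abundant than that of Apaf1, by 28.6 to 45.6 times in NC libraries and 134 to 229 times in tRF-Val libraries. The gap between the groups in this ratio follows mostly Apaf1, whose fold change was larger in size.

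Casp6, an executioner caspase which cleaves nuclear lamins, lies on chromosome 3 at 129901425 to 129914103 on the plus strand, with 1 listed transcript of 1456 bases. It was 10.6, 10.5 and 9.99 in NC 1, 2 and 3, against 11.8, 7.36 and 10.6 in tRF-Val 1, 2 and 3. The NC libraries lay close together inside the range of tRF-Val, which tRF-Val 2 extended downwards. Its fold change of -0.08 had a 95% interval of -0.57 to 0.40 (limma adjusted p 0.804).

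Diablo lies on chromosome 5 at 123509765 to 123524176 on the minus strand. It was 9.03, 19.7 and 10.2 in NC 1, 2 and 3, against 23.1, 30.9 and 28.9 in tRF-Val 1, 2 and 3. NC 2 was well above the other NC libraries and still below each tRF-Val library. The mean in tRF-Val was 2.13 times that in NC (27.6 ± 4.06 against 13.0 ± 5.86, SD, n = 3). The fold change was 1.10 with a 95% interval of 0.36 to 1.84, and the limma adjusted p was 0.105. It did not pass in any of 21 alternative analyses, where the adjusted p was 0.0908 to 0.316 and the fold change 0.58 to 1.42.

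Unlike those of Apaf1, the 4 listed Diablo transcripts encode different proteins. Diablo-201, Diablo-202 and Diablo-207 part from Diablo-203 well before its coding sequence ends. Their own coding sequence stops soon after that point, 8 bases on in Diablo-201 and Diablo-202 and 54 in Diablo-207. Diablo-203 has 711 coding bases, Diablo-201 and Diablo-202 have 522 each and Diablo-207 has 471. The letters below show where they part, from the RNA sequences of GENCODE M21 on GRCm38, minus strand. Lower case marks the end of the last exon shared with Diablo-203 and capitals mark what each transcript reads next. For Diablo-203 the capitals are the first 60 bases of its last exon, at chr5:123512648-123512707, which continue the long protein. For the other 3 the capitals run to the stop codon, at chr5:123516445-123516452, chr5:123517729-123517736 and chr5:123517901-123517954 in the order printed.
Diablo-203: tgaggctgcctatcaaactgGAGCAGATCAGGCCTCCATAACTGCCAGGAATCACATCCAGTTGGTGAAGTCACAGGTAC
Diablo-202: tgaggctgcctatcaaactgAAAAATGA
Diablo-201: tgaggctgcctatcaaactgGTAGTTAA
Diablo-207: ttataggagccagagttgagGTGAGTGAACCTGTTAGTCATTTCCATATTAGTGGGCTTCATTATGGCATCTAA

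The groups parted in the transcript with the long coding sequence. Diablo-203 was 7.65, 18.1 and 3.89 in NC 1, 2 and 3, against 21.7, 28.0 and 26.6 in tRF-Val 1, 2 and 3, with all tRF-Val libraries above all NC libraries. Its fold change was 1.50 (SE 0.50), with a limma adjusted p of 0.207 over 16320 transcripts, of which 1.14% passed. The NC libraries held 0.417, 0 and 3.92 of Diablo-202, whose stop codon ends 8 bases after the point of divergence, and the tRF-Val libraries 0.416, 1.46 and 0.389. In NC 3 the short transcript thus equalled the long one, at 38.6% and 38.3% of the gene, whereas Diablo-203 held 84.7% to 94.0% in the other 5 libraries. Diablo-201 and Diablo-207 stayed under 1.6 in each library and overlapped between the groups.

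Htra2 encodes a mitochondrial serine protease that also binds inhibitor of apoptosis proteins once released. It lies on chromosome 6 at 83051266 to 83055273 on the minus strand. Its value was 2.08, 0.811 and 0.305 in NC 1, 2 and 3, against 0.582, 0.690 and 1.06 in tRF-Val 1, 2 and 3. The highest and the lowest value were both in NC, and the groups overlapped. In a fit without the filter on low values the fold change was -0.13 with a 95% interval of -0.92 to 0.65 (limma adjusted p 0.804).

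The 2 listed Htra2 transcripts read differently after the fourth exon of Htra2-201, which carries the whole coding sequence of 1374 bases. Htra2-208 is annotated as incomplete at both ends, keeps 37 bases that follow that exon and leaves out the exon of 106 bases that Htra2-201 uses next. In the letters, lower case at the start is the shared exon, capitals are the part that differs (chr6:83052698-83052803 and chr6:83053001-83053037, GRCm38, minus strand, from GENCODE M21), and lower case at the end is the next shared exon.
Htra2-201: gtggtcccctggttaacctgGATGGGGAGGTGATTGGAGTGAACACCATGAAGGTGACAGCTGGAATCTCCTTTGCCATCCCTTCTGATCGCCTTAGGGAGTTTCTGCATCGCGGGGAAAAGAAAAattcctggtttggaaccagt
Htra2-208: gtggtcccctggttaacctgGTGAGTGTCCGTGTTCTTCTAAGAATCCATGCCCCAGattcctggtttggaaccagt

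Htra2-201 was 0.831, 0.811 and 0.00632 in NC 1, 2 and 3, against 0.0883, 0.0309 and 0.0594 in tRF-Val 1, 2 and 3. NC 3 sided with tRF-Val in this transcript, below all of its libraries. For Htra2-208 the values were 1.25, 0 and 0.298 in NC, with 0.494, 0.659 and 1.00 in tRF-Val. Most of the value in tRF-Val, 84.8% to 95.5%, was thus assigned to the incomplete transcript. At such levels the gene sum says little about the transcript with the whole coding sequence.

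Of the inhibitors, Xiap binds and blocks caspase-9 and some, not all, of the executioners directly. It lies on the X chromosome at 42059679 to 42109656 on the plus strand. It was 5.16, 7.81 and 7.16 in NC 1, 2 and 3, against 7.09, 4.26 and 3.92 in tRF-Val 1, 2 and 3. tRF-Val 1 was among the NC values, above NC 1, and the other 2 tRF-Val libraries were below all of NC. Xiap had a fold change of -0.36 with a 95% interval of -0.99 to 0.27 (limma adjusted p 0.387). All 4 listed Xiap transcripts share the same 1488 coding bases and differ ahead of the start codon. The leading one was Xiap-203 in NC 1, NC 2 and tRF-Val 1, with 67.2% to 76.8% of the gene, Xiap-204 in NC 3 and tRF-Val 2, with 65.9% and 83.3%, and Xiap-201 in tRF-Val 3, with the whole of it. The leading transcript thus did not follow the groups.

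Birc2, also called cIAP1, is a ubiquitin ligase that acts in signalling from tumour necrosis factor receptors and is a weak direct inhibitor of caspases. It lies on chromosome 9 at 7818227 to 7837064 on the minus strand, with 1 listed transcript. Its value was 9.31, 9.04 and 10.4 in NC 1, 2 and 3, against 7.91, 6.14 and 8.04 in tRF-Val 1, 2 and 3. Every tRF-Val library was below every NC library. Birc2 had a fold change of -0.35 with a 95% interval of -0.76 to 0.06 (limma adjusted p 0.231).

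The antagonists and the inhibitors were also set side by side per length. Diablo and Htra2 together stood at 0.768, 1.22 and 0.596 times the sum of Xiap and Birc2 in NC 1, 2 and 3, and at 1.58, 3.04 and 2.50 times in tRF-Val 1, 2 and 3. Each tRF-Val library was above each NC library. The ratio was chosen after the values were seen, carries no test, and follows mainly Diablo, since Htra2 was the least abundant of these 4 in every library.

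**Figure D3:**
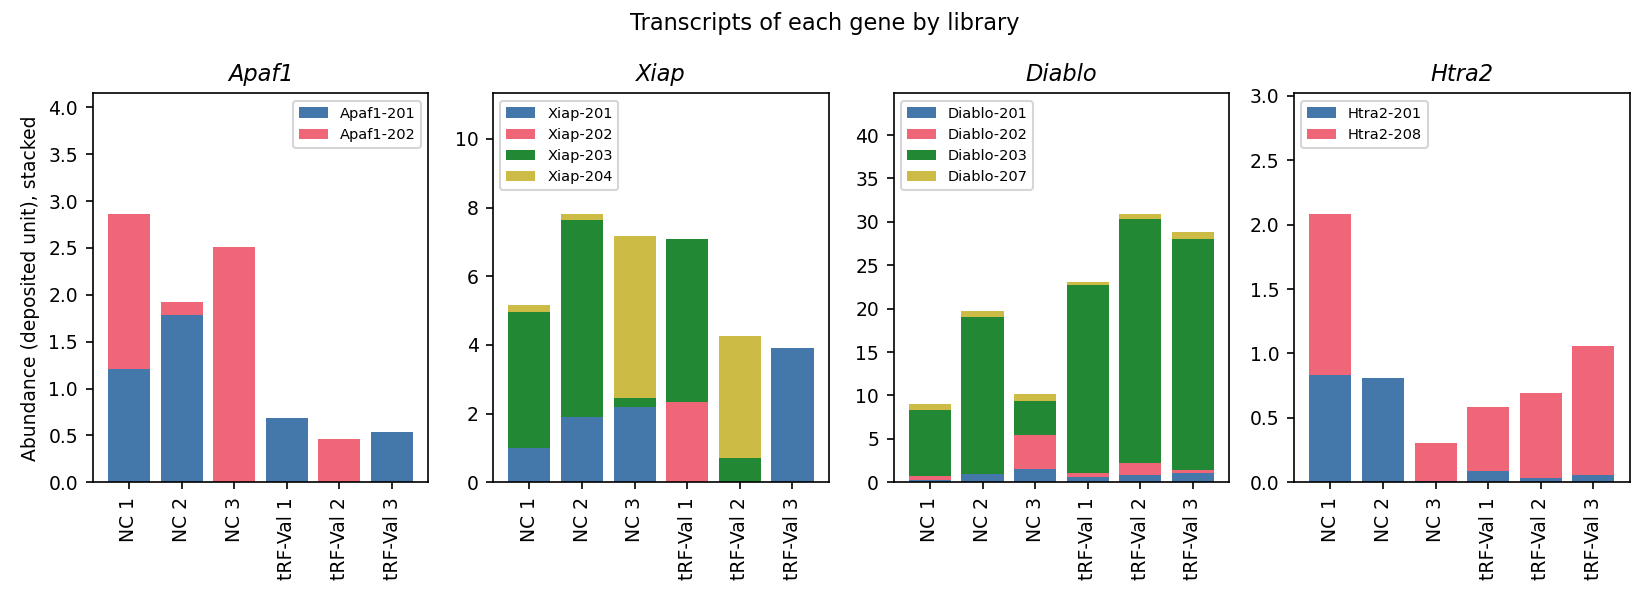
Abundance of each listed transcript (deposited unit, stacked bars from 0) of Apaf1, Xiap, Diablo and Htra2 in the 6 libraries; colours are transcripts within a panel. The leading transcript of Apaf1 and Xiap differs between libraries of 1 group, and Diablo-203 leads in all libraries except NC 3, where it stands at 3.89 beside 3.92 for Diablo-202.

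Fold changes over all genes moved with transcript length. The 1040 genes with the longest transcripts, which include Apaf1 (6501 bases on average) and Xiap (6637 bases), had a median fold change of -0.42, and the 1040 with the shortest 0.61. Casp6 (1456 bases) and Diablo (1524 bases) fell among genes with a median of 0.42, Cycs and Birc2 among genes with -0.06, and Casp9 among genes with -0.25. After each library's trend with length was removed, Apaf1 was at -0.70 (SE 0.16, limma adjusted p 0.148) and Diablo at 0.78 (SE 0.28, adjusted p 0.224). Casp6 went to -0.43 (SE 0.23, adjusted p 0.330), Cycs to 0.34 (SE 0.17, adjusted p 0.306) and Birc2 to -0.23 (SE 0.19, adjusted p 0.504). Xiap and Casp9 changed sign, to 0.07 and 0.15. Both Apaf1 and Diablo thus kept their directions with smaller fold changes, by more than 1.5 times for Apaf1.

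**Figure D4:**
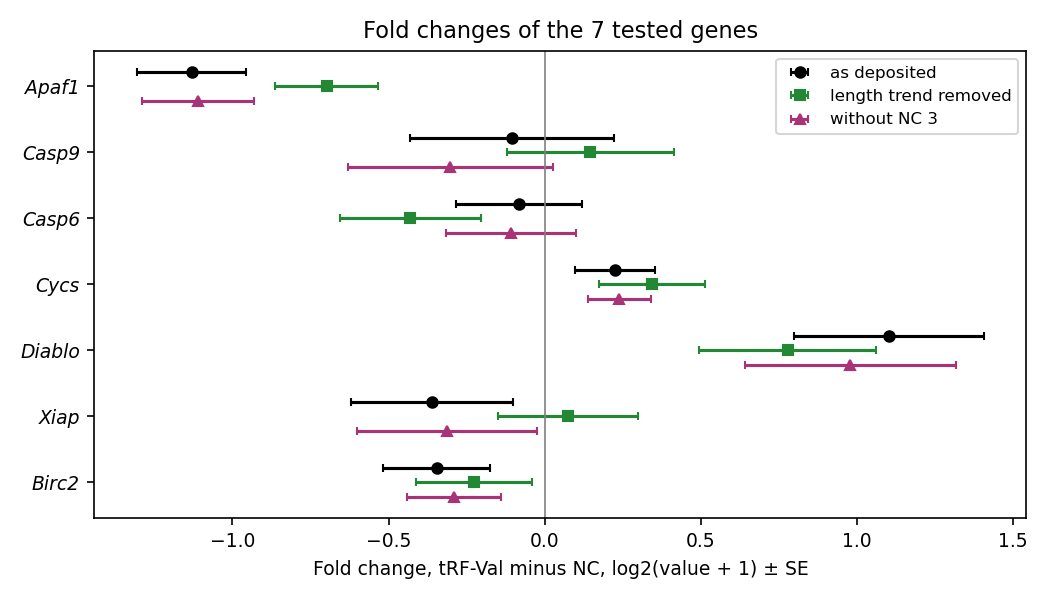
Fold changes of the 7 tested genes, tRF-Val less NC as log2(value + 1), with bars of ± 1 SE, from the values as deposited, with the length trend of each library taken out, and without NC 3. Apaf1 lies at -1.13, -0.70 and -1.11 and Diablo at 1.10, 0.78 and 0.98, while Xiap and Casp9 change sign after removal of the trend.

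The wider pathway was described through 6 lists with 67 genes, of which 62 were listed and tested. None passed over all genes (limma), and 16 of the 62 had an unadjusted p under 0.05, against 27.8% of all genes. That share is also the background for the count of each list below. The median fold change was 0.06, with 33 positive and 29 negative, against a median of 0.01 over all genes tested. Of the 7 other caspases tested none passed and 1 had an unadjusted p under 0.05. That was Casp2, an initiator caspase activated on a platform of its own, the PIDDosome. It was 9.38, 9.32 and 6.13 in NC 1, 2 and 3, against 1.51, 0.128 and 0.0244 in tRF-Val 1, 2 and 3. Every tRF-Val library lay far below every NC library. Its fold change of -2.68 (SE 0.38) exceeded in size that of Apaf1 and of each other gene in the lists, and its limma adjusted p was 0.0568. It passed in 6 of 20 alternatives. The lowest adjusted p of these, 0.00059, came from library quality weights, whose fit did not converge, and the next was 0.0274, while the highest of the 20 was 0.233. After removal of the length trend the fold change was -2.48 with an adjusted p of 0.0559. Without NC 3 its limma adjusted p was 0.0420, in a fit in which 602 of 10405 genes passed. The value of 0.0274 was without tRF-Val 1, where 44 genes passed. The next by p were Casp8, the initiator of the death receptor pathway, at 37.8 ± 6.43 in NC and 28.4 ± 2.92 in tRF-Val (SD, n = 3), and Casp1, the inflammatory caspase, at 17.0 ± 0.768 and 21.5 ± 1.81 (SD, n = 3).

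Of 7 tested members of the remaining inhibitor family none passed, 2 had an unadjusted p under 0.05 and the median fold change was -0.10. Birc5, or survivin, which acts mainly in mitosis, was 130, 148 and 160 in NC 1, 2 and 3, against 195, 244 and 265 in tRF-Val 1, 2 and 3, with separate groups and a limma adjusted p of 0.0940. Naip1, which in mice detects bacterial proteins for the inflammasome, was 2.28 ± 0.160 and 3.47 ± 0.239 (SD, n = 3), and Naip6 was 3.98 ± 0.885 and 2.83 ± 0.733 (SD, n = 3). The Naip genes are close copies of each other, so their values are uncertain. Among 9 genes of inhibitor binding and turnover none passed, 2 had an unadjusted p under 0.05 and the median was 0.34. Arel1, a ubiquitin ligase known to target Diablo and Htra2 in human cells, was 14.6, 12.5 and 10.4 in NC 1, 2 and 3, against 7.75, 0.0293 and 3.97 in tRF-Val 1, 2 and 3, with separate groups and an adjusted p of 0.169. Xaf1, a binding partner of Xiap, was 101 ± 4.40 and 77.9 ± 13.3 (SD, n = 3), and Traf1, a receptor adaptor that binds Birc2, was 0.544 ± 0.345 and 2.05 ± 1.20 (SD, n = 3).

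Of 13 tested regulators of the apoptosome none passed, 2 had an unadjusted p under 0.05 and the median was 0.08. Anp32a, which promotes its assembly, was 125, 129 and 136 in NC 1, 2 and 3, against 158, 191 and 225 in tRF-Val 1, 2 and 3 (limma adjusted p 0.118). Aven, which binds Apaf1 and hinders it, was 8.10, 7.84 and 6.43 in NC, with 9.94, 10.3 and 12.8 in tRF-Val (limma adjusted p 0.140). These were the 2 of 13 that were higher in every tRF-Val library, as were 20.3% of all genes tested, so the count is not a result about the list. Hspb1, a small heat shock protein that can bind cytochrome c, overlapped, at 466 ± 150 and 675 ± 119 (SD, n = 3).

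Among 14 genes of cytochrome c maturation and the mitochondrial intermembrane space and membranes none passed, and the median was 0.16. An unadjusted p under 0.05 (limma) was reached by 6 of the 14, with 4 higher and 2 lower in tRF-Val. Of all genes tested 27.8% reached it, with 1266 higher and 1628 lower. The count for this list was not tested and is not a result about the list. Phb, prohibitin of the inner membrane, was 48.0 ± 17.9 in NC and 88.9 ± 8.49 in tRF-Val (SD, n = 3, limma adjusted p 0.129). Without NC 3, where Phb was 27.3 against 58.7 and 58.0 in NC 1 and 2, its limma adjusted p was 0.0487. In that fit 602 of 10405 genes passed. Opa1, which shapes the cristae that store cytochrome c, was 16.4 ± 2.76 and 11.3 ± 1.47 (adjusted p 0.148).

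Of 12 tested executioner substrates and nuclease genes none passed, 3 had an unadjusted p under 0.05 and the median was -0.03. These 3 of 12 were lower in every tRF-Val library than in any NC library, a share near the 22.1% of all genes tested. Rad21, a cohesin subunit cut by caspases, was 121 ± 10.4 in NC and 75.8 ± 15.1 in tRF-Val (SD, n = 3, limma adjusted p 0.101). Pak2, a kinase that cleavage activates, was 24.9 ± 1.08 and 17.4 ± 1.37 (adjusted p 0.105), and Sptan1, alpha spectrin of the membrane skeleton, was 53.4 ± 5.16 and 32.5 ± 11.7 (adjusted p 0.144). Dffa and Dffb, the inhibitor and the nuclease that cuts DNA once executioners are active, overlapped between the groups, at 5.84 ± 1.96 and 7.40 ± 1.04 for Dffa and 1.43 ± 0.363 and 1.92 ± 0.546 for Dffb (SD, n = 3).

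**Figure D5:**
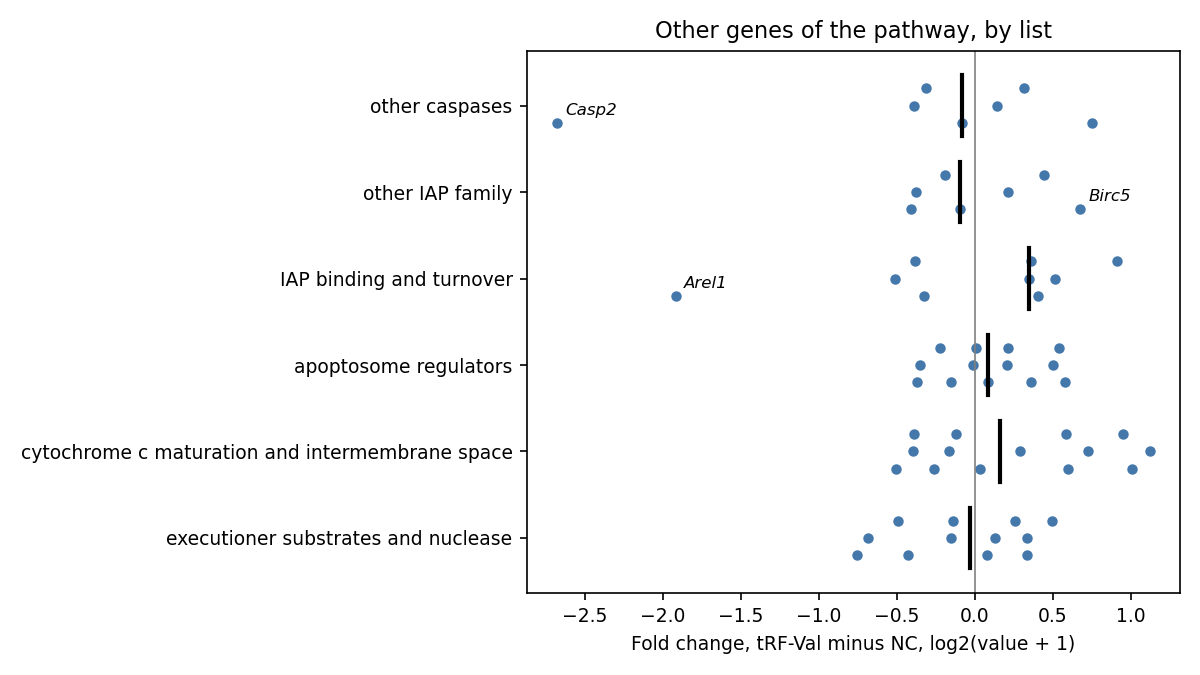
Fold changes of the 62 tested genes in 6 lists around the apoptosome, tRF-Val less NC as log2(value + 1) (x axis); each point is a gene, vertical spread within a list is for legibility, and black lines are list medians. The medians lie between -0.10 and 0.34, and Casp2 at -2.68 and Arel1 at -1.92 lie lowest.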

How the data were processed

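The tools named by the submitters' processing notes are StringTie, HISAT2 2.1.0 and cutadapt, with the human build GRCh38; their settings and the annotation were not given in the sources used here. Per the labels' protocols the kit marks strand with dUTP, and the same text describes joint tissue. Each library has 1 deposited signal value for each transcript, scaled by the authors; FPKM or TPM is not stated. Of 30813 rows, 21603 carry mouse identifiers and 9210 human ones, which were not used. Without versions, 21558 mouse rows matched GENCODE M21 on GRCm38, the source of the symbols, coordinates and sequences. The larger group mean of a mouse row is never below 0.5, so lower transcripts are missing from gene sums.

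Log2(value + 1) of gene sums was fitted across all genes with limma 3.58.1 in R 4.3.3 (trend, robust, both groups in 1 fit, no covariate), two-sided, at an adjusted p of 0.05, and was tested on simulated data. Intervals are 95% and unadjusted. An exact permutation test of 3 against 3 cannot go below p = 0.1. Length trends were removed by loess with a span of 0.3. Named genes are the 8, each listed gene that passes, the 3 of each list with the smallest p, and the 5 most like Apaf1; 1 gene that this rule names is not reported here, and Dffa and Dffb were named after their values were seen. The members and lists were chosen with earlier results of these data known.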

Additional observations from a re-analysis of the deposited data

How the results depend on the processing

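The fold change of Apaf1 was negative in all 20 alternatives that could be run, from -2.10 to -0.64, and passed in 3. Those were rescaling without mitochondrially encoded transcripts (-1.27), library quality weights, whose fit did not converge (-0.96), and leaving out NC 3; over the 6 fits without 1 library it was -1.24 to -1.04, with adjusted p of 0.0439 to 0.234. The stricter filter, a mean of at least 5, leaves out Apaf1 and Casp9. Of the 8 genes, 1 passed after the mitochondrial rescaling, 3 with weights and 0 to 1 without 1 library, and no single transcript passed. Diablo and Birc2 kept their signs in 21 of 21 alternatives. Casp9 reversed with quantile normalization (0.015), length trend removed (0.15, also with the replicate block), weights (0.019), without NC 3 and the trend (0.018), and in fits without 1 library (-0.30 to 0.16). Casp6 ranged from -0.21 to 0.10 without 1 library, Cycs was -0.028 after mitochondrial rescaling, and Xiap was 0.075 with the length trend removed, with or without the replicate block, 0.23 with length and GC trends removed and 0.13 without NC 3 and the trend.

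Over all genes 27 passed. The count was 5 and 0 with pseudocounts of 0.1 and 0.01, 2 with the stricter filter, 71 with quantile normalization, 209 after mitochondrial rescaling, 56 with length and GC trends removed, 45 without limma's trend, 5620 with weights, 105 without NC 3 and the length trend, and 3 to 602 without 1 library. Of the 27, 6 were higher and 21 lower, against 15 and 23 with median scaling, 22 and 49 with quantile normalization, 23 and 186 after mitochondrial rescaling, 9 and 18 with the length trend removed and 21 and 35 with length and GC trends removed. At an unadjusted p under 0.05 the balance turned with the scaling: 1266 genes were higher and 1628 lower as deposited, 1195 and 1603 with the pseudocount of 0.01, 1767 and 1265 with median scaling, 1412 and 1427 with quantile normalization, 571 and 2723 after mitochondrial rescaling, which moved the median of all genes to -0.20, 1058 and 961 with the length trend removed and 1334 and 1077 with length and GC trends removed. In the 6 lists 1 gene passed with median scaling, with quantile normalization, with mitochondrial rescaling (Casp2 each) and with length and GC trends removed (Naip1), 34 with weights, and 0 to 2 without 1 library. The Apaf1 to Casp9 difference of -1.03 was -1.79 with a pseudocount of 0.1 and -0.85 with the most abundant transcript of each gene, where the groups overlapped. Same-numbered libraries did not deviate together (r of -0.03, 0.02 and -0.01). The labels do not say whether the numbers pair them, and these r over so few libraries cannot exclude it. With the replicate block 0 genes passed by limma, and Apaf1 had an adjusted p of 0.190. In that fit 1080 genes were higher and 1375 lower at an unadjusted p under 0.05. With the block and the length trend removed 0 passed too, with 840 and 853. The causes were not tested. Depth is unknown, so no counting error can be given.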
